A study of Mus musculus with 48 samples.

Results

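The gene families followed here in mouse liver were the major urinary proteins (Mup) and the 3β-hydroxysteroid dehydrogenases (Hsd3b), read through 7 genes: Mup3, Mup5, Mup20, Mup21, Hsd3b2, Hsd3b3 and Hsd3b5. Every non-control probe that carries one of these gene names in the scanner files was taken, whatever its signal, which gave 13 of 56605 probes and 7 of 37074 gene names. All 13 entered the test of 33323 probes, which asked for a signal well above background in 4 or more mice of some group. The same array holds 16 probes of 11 other Mup and Hsd3b genes, which are used for comparison.

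Mup proteins are small lipocalins that the liver secretes into blood, that pass into urine, and that carry volatile pheromones in a central pocket. Male mice make far more of them than females, and the pulsatile growth hormone of males, with androgens and glucocorticoids, is known to keep their genes on. Mup20, also named darcin, is itself the male sex pheromone protein that females learn and remember. Hsd3b enzymes oxidise or reduce the 3-position of steroids, a step in the making or the clearing of steroid hormones, and Hsd3b5 is known as a male-specific enzyme of mouse liver.

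Liver RNA came from 48 male C57Bl6J mice, 20 weeks old, in 6 groups of 8, and each mouse had an array of its own. The genotypes were wild-type (WT), Pparα hep-/- and Pparα-/-, and each was fed a control diet (CTRL) or a high-fat diet with 60% fat (HFD), for 12 weeks by the labels. In Pparα hep-/- mice the albumin-Cre transgene removes floxed Ppara from hepatocytes and leaves it in the other liver cells, whereas Pparα-/- mice lack it in every cell. All mice were housed at thermoneutrality. By the study's methods the WT mice were bought and both mutant lines were bred in house, so origin and genotype cannot be told apart in any comparison with WT. The mutants are separate lines, so line and genotype cannot be told apart between them either. The design asks what the diet changed within each genotype, what each deletion changed on each diet, and whether the response to diet differed between genotypes.

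Values are log2 signals of a 1-colour array after quantile normalisation, and differences are log2 changes from a limma model with wash batch as a covariate and weights per array. A probe was called when its adjusted p over all 33323 probes was at most 0.05. Changes given within a wash batch are differences of plain group means, without weights. Between 28234 and 38217 spots per array were well above background and none was saturated. Signals of different probes depend on the probe as well as on the transcript, so no level is compared between probes. The 12 hepatocyte markers, summed, lay between 21.12 and 21.36 in all 48 mice, a sum carried by the brightest probes such as Alb (18.71 to 18.93), while dimmer markers spanned more, Cps1 from 12.64 to 14.90 and Tat from 13.73 to 15.84. Of the 2 Ppara probes, A_55_P2071596 differed by -1.11 between Pparα-/- and WT mice on CTRL and by -1.29 on HFD, and by -0.10 (adjusted p = 0.454) and -0.68 between Pparα hep-/- and WT mice. A_55_P2055854 was called lower in all 4 of these comparisons (-0.65, -1.08, -0.42 and -0.85). The arrays of WT CTRL replicate 6 and Pparα hep-/- CTRL replicate 1 had the lowest weights, 0.208 and 0.189. WT HFD replicates 1 and 2 had summed white adipocyte markers of 8.73 and 8.75 against 13.91 to 15.52 in the other 6 mice of that group and 8.05 to 10.27 in WT mice on CTRL. That sum held 3 of 5 markers, and its high values come from 1 gene, Cfd (5.18 to 15.51 over the 48 mice). Lep reached at most 8.35 and Retn 6.34. The neutrophil sums of WT HFD replicates 1 and 2 were 13.60 and 15.01, against at most 11.17 in the other 6. Their marker levels are thus unlike those of the other WT mice labelled HFD, and whether the diet label of these 2 mice holds was not tested. The 16 mutants labelled HFD had adipocyte sums of 7.86 to 9.49. Each WT value on HFD includes the 2 mice, results without them are given below, and the part of their markers in the results was not tested. In whole liver, fewer cells of a type and less RNA per cell cannot be told apart.

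The Mup genes lie in a cluster on chromosome 4 and are near copies of each other, so the probes were compared with each other first. Of 406 pairs among the 29 family probes, 5 shared a run of 16 bases or more. The pair below is shown because a member probe and a probe named for another gene share a stretch. Sequences are probe sequences from the scanner files, 5′ to 3′ in the sense of the transcript, and capitals mark the longest run that the pair shares, 21 bases.
Mup20 A_55_P2051486: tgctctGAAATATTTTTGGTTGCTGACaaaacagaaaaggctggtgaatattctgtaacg
Mup6 A_52_P387467: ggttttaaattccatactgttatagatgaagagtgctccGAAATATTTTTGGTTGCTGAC
Where these probes overlap, 26 of 27 bases matched. The files place the Mup20 probe on the minus strand of mm9 at chr4:61713671-61713730. The other Mup20 probe, A_55_P2063654, shared a run of 24 bases with the Mup4 probe and matched it at 45 of 52 bases. The Hsd3b5 probe shared 23 bases with an Hsd3b4 probe, which was well above background on only 7 of 48 arrays.

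The probes shown next, for Mup3, Mup5, Hsd3b3 and Hsd3b2, shared no run of 16 bases with another family probe. They carry results below and are printed with no capitals since nothing is marked.
Mup3 A_55_P1971237: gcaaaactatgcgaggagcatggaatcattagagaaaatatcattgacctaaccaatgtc
Mup5 A_52_P412506: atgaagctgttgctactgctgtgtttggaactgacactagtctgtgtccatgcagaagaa
Hsd3b3 A_52_P459818: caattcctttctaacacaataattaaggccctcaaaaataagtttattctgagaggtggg
Hsd3b2 A_55_P2023114: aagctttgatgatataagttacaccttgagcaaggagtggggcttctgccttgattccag
By the files, these lie on the minus strand of mm9 at chr4:61745794-61745853 for Mup3, chr4:61496097-61496156 for Mup5, chr3:98546284-98546343 for Hsd3b3 and chr3:98515703-98515762 for Hsd3b2. Transcripts of other near copies can still hybridise to a probe, so each Mup value below is the value of a probe and may hold signal from more than 1 gene.

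The Mup probes were among the brightest on the array, where the rank of a raw signal describes the probe and not how much of a transcript there is. The brighter Mup21 probe had a median rank of 13 among all probes over the 48 arrays and the brighter Mup20 probe a median rank of 14. Ranks of Mup3, Mup5 and the other Mup20 probe had medians between 55.5 and 86.5, except for the Mup3 probe A_66_P133052, whose median rank was 15450.75. The Hsd3b2 probes had median ranks from 2259.5 to 4171 and the Hsd3b3 probe 6113.75. Hsd3b5 ranged from rank 688 to rank 28980, the widest span of ranks among the 13 probes.

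Every diet call among the Mup and Hsd3b members was a lower signal on HFD, in Pparα-/- or Pparα hep-/- mice. In WT mice 0 of 13 probes were called between HFD and CTRL by limma, where 18.7% of all probes were, and 0 had an unadjusted p under 0.05. In Pparα hep-/- mice 5 of 13 were called, all lower on HFD (20.2% of all probes were called, 10.8% as lower). In Pparα-/- mice 10 of 13 were called, all lower on HFD (24.8% called, 12.6% as lower). For 6 of the 13 the 8 HFD and the 8 CTRL mice of that genotype did not overlap, against 1.44% of all probes. The 13 probes had a median change of 0.05 in the WT genotype, of -0.19 after hepatocyte deletion and of -0.90 in Pparα-/- mice, beside medians of -0.01, -0.01 and -0.02 over all probes. Without array weights 0 of 13 were called in Pparα hep-/- mice and 8 of 13 in Pparα-/- mice, where 3.81% and 12.1% of all probes were.

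**Figure D1:**
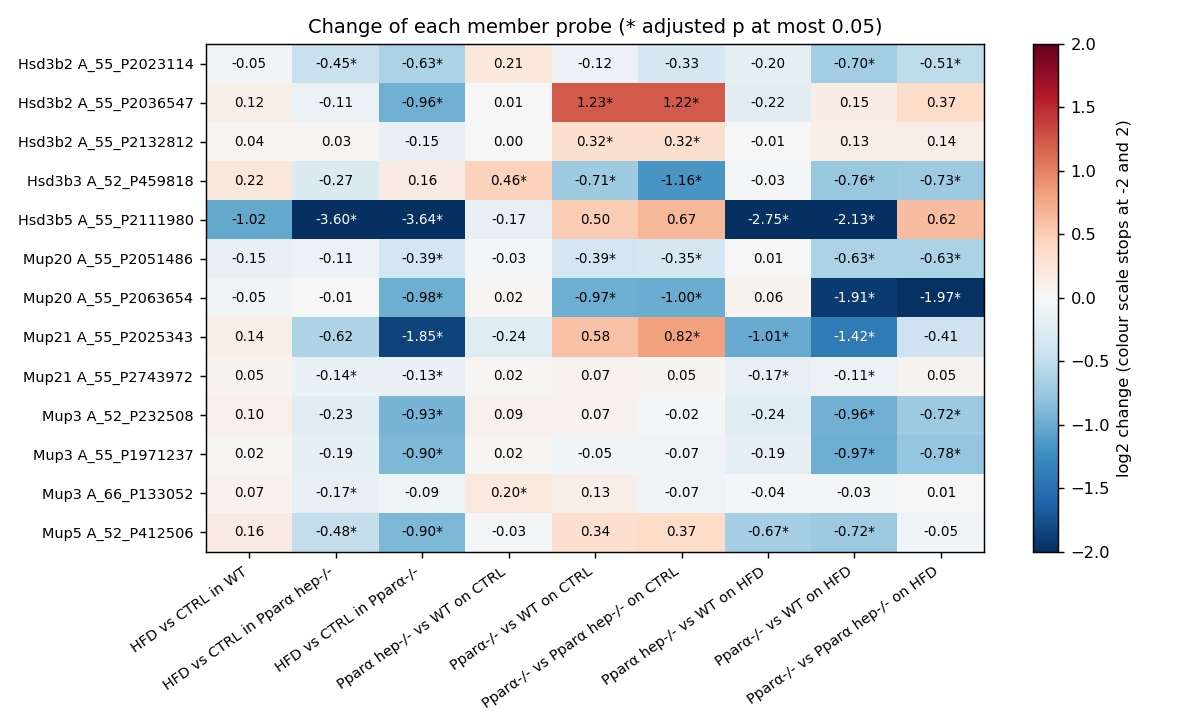
Log2 change of each of the 13 probes (rows, named by gene and probe) in the 9 comparisons of 2 groups (columns), on a colour scale from lower to higher, with the value printed in each cell and a star where limma's adjusted p was at most 0.05. The column for HFD in Pparα-/- mice holds 10 starred probes, all lower, and the column for HFD in WT mice holds none.

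The difference between the diet responses was itself tested. The response of WT mice minus that of Pparα-/- mice was called for 7 of 13 probes, all positive, where 14.3% of all probes were called and 7.42% as positive. The response of Pparα hep-/- mice minus that of Pparα-/- mice was called for 3 of 13, all positive (3.42% of all probes, 1.3% as positive), and the response of WT minus that of Pparα hep-/- mice for 1 of 13, positive (10.4%, 5.79% as positive). These contrasts share groups with each other and with those above, so they are not independent of them. The comparisons of diets within a genotype compare mice of 1 origin and are free of the difference in origin.

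Mup20 separated the 2 deletions from each other. In the probe A_55_P2063654, the 8 WT mice on CTRL lay at 18.62, 18.68 and 18.71 (lowest, median, highest), the WT mice on HFD at 18.57, 18.63 and 18.70, the Pparα hep-/- mice on CTRL at 18.64, 18.69 and 18.74 and those on HFD at 18.64, 18.70 and 18.74. The Pparα-/- mice lay at 17.49, 17.65 and 18.23 on CTRL and at 15.99, 16.68 and 17.36 on HFD. All 16 Pparα-/- mice were thus below all 32 other mice, and those on HFD were below those on CTRL with no overlap. The width of the gap depended on the normalisation. With the processed signal, on a scale of its own, the highest Pparα-/- mouse was at 9.25 and the lowest other mouse at 9.28. Neither diet nor hepatocyte deletion was called between the other 4 groups, whose means were 18.62 to 18.69.

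Between Pparα-/- and WT mice this probe changed by -0.97 on CTRL (SE 0.13, adjusted p = 1.13e-07 by limma, 1.96-fold lower) and by -1.91 on HFD (SE 0.12, adjusted p = 2.54e-18, 3.76-fold lower). Against Pparα hep-/- mice, which were bred in the same house as a separate line, the changes were -1.0 (adjusted p = 7.36e-09) and -1.97 (adjusted p = 9.6e-20). HFD changed it by -0.98 in Pparα-/- mice (SE 0.12, adjusted p = 1.06e-07), by -0.05 in WT mice (95% interval -0.31 to 0.22) and by -0.01 in Pparα hep-/- mice (-0.23 to 0.22). Both differences between these responses were called, 0.94 for WT minus Pparα-/- (adjusted p = 0.000371) and 0.98 for Pparα hep-/- minus Pparα-/- (adjusted p = 0.000263). Within the wash batches the change with HFD in Pparα-/- mice was -0.78 and -1.23. Raw signals of the Mup probes reached at most 69.6% of the scanner's saturation value.

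The second Mup20 probe moved the same way and by less. A_55_P2051486 was at 17.62 ± 0.25 (SD, n = 8) in Pparα-/- mice on CTRL and 17.28 ± 0.47 on HFD, against means of 17.83 to 17.95 in the other 4 groups, and its groups overlapped. Its change between Pparα-/- and WT mice was -0.39 on CTRL (adjusted p = 0.00113) and -0.63 on HFD (adjusted p = 1.96e-08), and HFD changed it by -0.39 in Pparα-/- mice (adjusted p = 0.000631). Within the wash batches that last change was -0.13 and -0.55. Its differences between diet responses were not called, but that of WT minus Pparα-/- went from 0.24 (adjusted p = 0.193) to 0.57 (0.0222) with the processed signal and to 0.48 (0.0346) with median scaling. The change on CTRL was not called with the processed signal (-0.32, adjusted p = 0.0625). Against Pparα hep-/- mice on CTRL it was -0.35 (adjusted p = 0.00125), and not called with the processed signal (-0.19), median scaling (-0.23) or without the wash term (-0.25).

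One probe named for another gene followed the same pattern. Mup6 A_66_P116323 changed by -2.28 on CTRL and by -3.57 on HFD between Pparα-/- and WT mice, and by -1.62 with HFD in Pparα-/- mice. The other Mup6 probe, A_52_P387467, which shares its run of 21 bases with the dimmer Mup20 probe, instead changed by -1.37 with HFD in Pparα hep-/- mice and by -1.66 in Pparα-/- mice. Probes named for 1 gene thus differed in their pattern, and which transcripts each one reads was not tested.

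**Figure D2:**
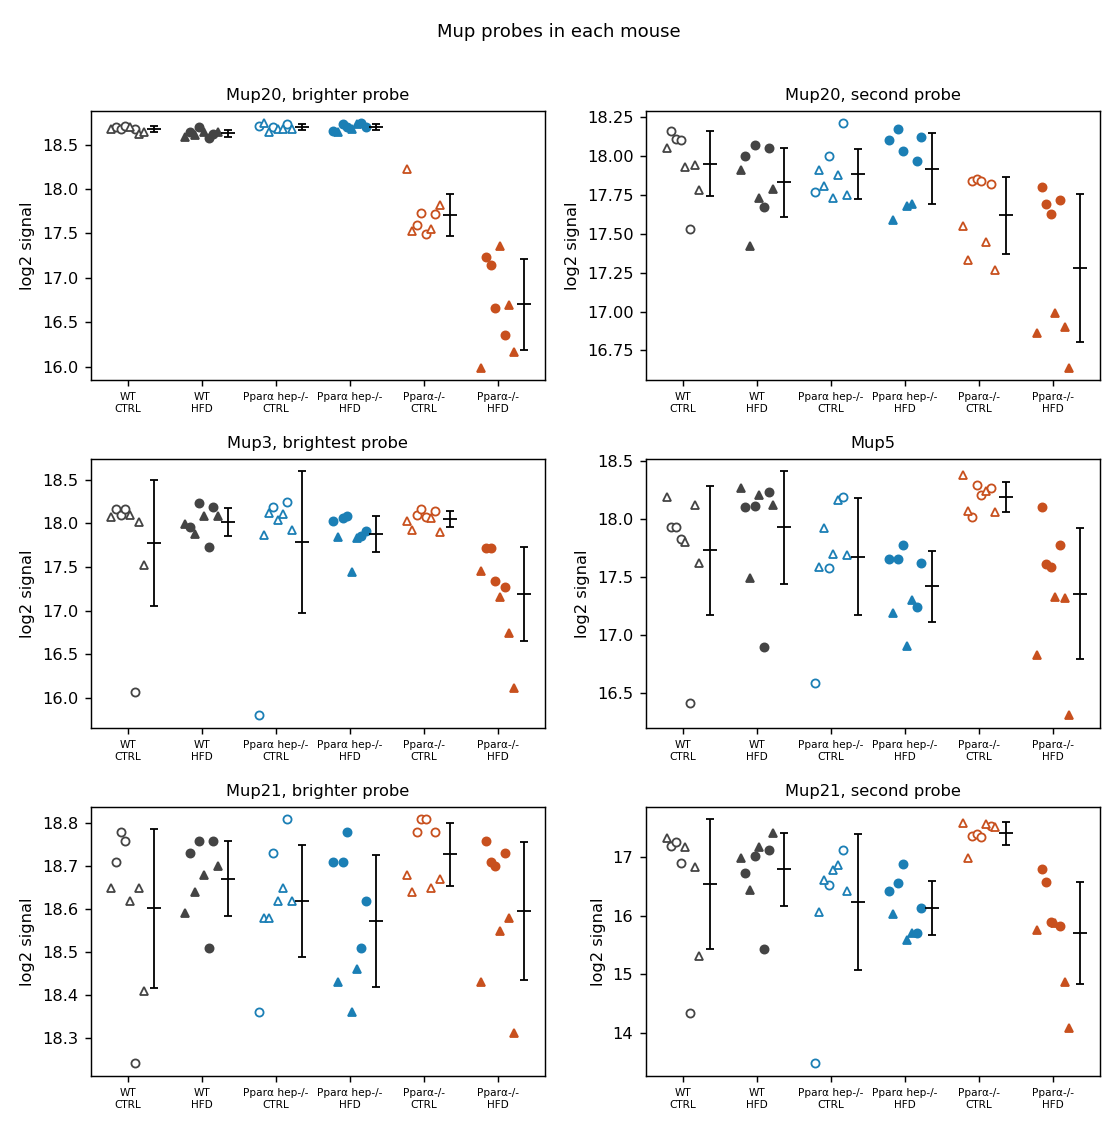
Log2 signal of 6 Mup probes in each mouse, by genotype and diet (hollow, CTRL; filled, HFD; circles and triangles, the 2 wash batches; bar and whiskers, mean ± SD of 8 mice). The 16 Pparα-/- mice lie below all others for Mup20 A_55_P2063654, and in the Mup3 panel (A_52_P232508) the Pparα-/- mice on HFD lie below those on CTRL.

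In its 2 bright probes Mup3 fell with HFD in Pparα-/- mice, and no call was made between diets in the other genotypes. In the probe A_52_P232508 the Pparα-/- mice were at 17.90, 18.07 and 18.17 on CTRL and at 16.12, 17.30 and 17.72 on HFD, with no overlap. WT mice were at 16.07, 18.08 and 18.17 on CTRL and at 17.73, 18.04 and 18.23 on HFD, and Pparα hep-/- mice at 15.80, 18.08 and 18.24 on CTRL and at 17.44, 17.89 and 18.08 on HFD. A single mouse in each of the WT and Pparα hep-/- groups on CTRL was far below its group.

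HFD changed this probe by -0.93 in Pparα-/- mice (adjusted p = 3.47e-05) and the second bright probe, A_55_P1971237, by -0.90 (SE 0.11, adjusted p = 3.75e-07). On HFD the Pparα-/- mice differed from WT by -0.96 and -0.97 and from Pparα hep-/- mice by -0.72 and -0.78 in the 2 probes, all called. On CTRL none of the 3 genotypes was called different in either. Pparα hep-/- and WT mice on HFD, at -0.24 and -0.19, were not called apart, but with the processed signal both probes were (-0.44 and -0.36, adjusted p = 0.0488 and 0.0398). Between WT and Pparα-/- mice the responses differed by 1.03 and 0.92, both called, the former not without array weights (adjusted p = 0.0557). The response of Pparα hep-/- minus that of Pparα-/- mice was 0.71 in A_55_P1971237 (adjusted p = 0.00664), not called without array weights (0.74, adjusted p = 0.0651). In A_52_P232508 it was 0.70 and not called (adjusted p = 0.0606), but was called with normexp, with median scaling and without the 2 arrays of lowest weight (adjusted p = 0.0495, 0.0486 and 0.0258).

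The remaining Mup3 probe gave another picture. A_66_P133052 lay between 7.61 and 8.36 in all mice, was called 0.20 above WT in Pparα hep-/- mice on CTRL, where 2 of 13 probes were called, both higher (24.7% of all probes, 11.3% as higher), and changed by -0.17 with HFD in Pparα hep-/- mice. The former call was lost without WT CTRL replicate 2 or 5 or Pparα hep-/- CTRL replicate 6 (adjusted p up to 0.093), and the latter without any of 9 arrays (up to 0.116). Without weights neither was called (0.18, adjusted p = 0.104, and -0.09, adjusted p = 0.634), nor without the filter or the wash term, and the latter was lost in 6 more alternatives. Its raw signal had medians of 244.5 to 319.75 per group, beside medians of 56 to 91 over all spots of an array, and it carries another transcript's accession than the bright Mup3 probes.

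Mup5, a family member best known from glands of the head, changed with HFD by -0.90 in Pparα-/- mice (SE 0.17, adjusted p = 0.000135) and, in the hepatocyte knockout, by -0.48 (SE 0.16, adjusted p = 0.0286). The Pparα-/- mice were at 18.02, 18.23 and 18.38 on CTRL and at 16.31, 17.46 and 18.10 on HFD, and the Pparα hep-/- mice at 16.59, 17.70 and 18.19 and at 16.91, 17.46 and 17.78. WT mice were at 16.42, 17.88 and 18.19 on CTRL and at 16.90, 18.12 and 18.27 on HFD, a change of 0.16 (adjusted p = 0.626). On HFD the mutants differed from WT with a change of -0.67 for Pparα hep-/- (adjusted p = 0.00219) and of -0.72 for Pparα-/- mice (adjusted p = 0.000367), and they differed from each other by -0.05 (95% interval -0.36 to 0.26). Between WT and Pparα-/- mice the diet responses differed by 1.07 (adjusted p = 0.0036). Within the wash batches the change in Pparα hep-/- mice was 0.14 and -0.68, by plain means without weights. The first batch holds 3 Pparα hep-/- mice on CTRL, among them replicate 1 (16.59, array weight 0.189). The call in Pparα hep-/- mice was lost without CTRL replicate 6 or 7 or HFD replicate 5, 6 or 7 (adjusted p up to 0.0895). That call was also lost without weights (-0.27, adjusted p = 0.622), without the filter (0.108), without the wash term (0.109), in the authors' table (0.0702) and without the 2 arrays of lowest weight and weights (0.0892). Without weights the difference between Pparα hep-/- and WT mice on HFD was not called either (-0.52, adjusted p = 0.137).

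Mup21 was read by a probe near the top of the scale and by a dimmer one. In A_55_P2025343 the Pparα-/- mice were at 16.99, 17.46 and 17.58 on CTRL and at 14.08, 15.84 and 16.80 on HFD, with no overlap, a change of -1.85 (adjusted p = 9.41e-06). WT mice were at 14.34, 17.04 and 17.33 on CTRL and at 15.44, 17.01 and 17.41 on HFD, and Pparα hep-/- mice at 13.48, 16.57 and 17.13 and at 15.59, 16.09 and 16.88. In Pparα hep-/- mice the change with HFD was -0.62 and not called (adjusted p = 0.0974), but it was called with the processed signal (-0.80, 0.0349), median scaling (-0.80, 0.0282) and without the 2 arrays of lowest weight (-0.70, 0.0316). On CTRL the Pparα-/- mice were 0.82 above the Pparα hep-/- mice in this probe, a call lost without any of 5 arrays, Pparα hep-/- CTRL replicate 2, 4 or 8 or Pparα-/- CTRL replicate 1 or 6 (adjusted p up to 0.0895), and also without the filter, with slides and without the 2 arrays and weights (up to 0.0693). On HFD both mutants were below WT, with changes of -1.01 for Pparα hep-/- and -1.42 for Pparα-/- mice. The former was not called without weights (-0.66, adjusted p = 0.315), without the filter (0.0512) or without the 2 arrays and weights (-0.70, 0.0764). The diet response of WT less that of Pparα-/- mice was 2.00, the widest called difference between diet responses among the 13 probes.

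The brighter Mup21 probe, A_55_P2743972, lay between 18.24 and 18.81 in all 48 mice after quantile normalisation, and with the processed signal, on a scale of its own, between 9.06 and 10.46. HFD changed it by -0.14 in Pparα hep-/- (adjusted p = 0.0205) and by -0.13 in Pparα-/- mice (adjusted p = 0.0321). Without Pparα hep-/- HFD replicate 5, 6 or 7 the former was lost (adjusted p up to 0.0741), and without Pparα-/- CTRL replicate 1, 6 or 8 or HFD replicate 1 or 8 the latter (up to 0.107). Both calls were also lost without array weights, without the filter on dim probes and without the wash term (adjusted p up to 0.639 and 0.173). The size of these changes depended on the normalisation, since they were -0.28 and -0.52 with the processed signal and -0.28 and -0.43 with median scaling. The response of WT minus that of Pparα-/- mice, 0.18 and not called (adjusted p = 0.0766), was 0.56 (0.00606) and 0.48 (0.00927) under those settings, both called.

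Hsd3b5 varied between mice more than any other of the 7 genes. WT mice were at 5.92, 14.86 and 15.24 on CTRL (lowest, median, highest) and at 7.60, 14.05 and 15.16 on HFD. Pparα hep-/- mice were at 6.60, 14.09 and 14.81 on CTRL and at 7.15, 11.85 and 14.05 on HFD. Pparα-/- mice were at 14.22, 14.75 and 15.40 on CTRL and at 8.16, 11.85 and 13.94 on HFD. The Pparα-/- mice on CTRL lay above all Pparα-/- and all Pparα hep-/- mice on HFD, and the other pairs of groups overlapped. Their SD was 0.44 against 1.94 to 3.29 in the other 5 groups. A single mouse stood apart by Dixon's criterion in WT CTRL (5.92, the next at 11.32) and in Pparα hep-/- CTRL (6.60, the next at 13.17), while values in the mutants on HFD were graded.

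With HFD, Hsd3b5 changed by -3.60 in Pparα hep-/- mice (SE 0.80, adjusted p = 0.00127) and by -3.64 in Pparα-/- mice (SE 0.84, adjusted p = 0.00136). In WT mice the change was -1.02 (95% interval -2.93 to 0.89, adjusted p = 0.519). The differences between these responses were not called, at 2.58 for WT minus Pparα hep-/- (adjusted p = 0.176), 2.62 for WT minus Pparα-/- (adjusted p = 0.157) and 0.04 for the 2 mutants (95% interval -2.30 to 2.39). On HFD the mutants differed from WT by -2.75 (Pparα hep-/-, adjusted p = 0.0117) and -2.13 (Pparα-/-, adjusted p = 0.032). The former call was lost without Pparα hep-/- HFD replicate 5 or 6 (adjusted p up to 0.0758) and the latter without WT HFD replicate 1, 4, 5 or 8 or Pparα-/- HFD replicate 7 or 8 (up to 0.139). Both were also lost without the filter on dim probes (adjusted p = 0.0949 and 0.117), without array weights (-1.74 and -1.49, adjusted p = 0.39 and 0.356) and without the wash term (0.0705 and 0.0686). The same held without the 2 arrays of lowest weight and weights (-1.85 and -1.49, adjusted p = 0.146 and 0.175). The latter call was also lost with slide in place of wash batch (0.0594).

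The calls between diets depended on the weights. Without array weights the change with HFD was -1.93 in Pparα hep-/- mice (adjusted p = 0.459) and -3.32 in Pparα-/- mice (adjusted p = 0.0568), and over all alternatives the adjusted p ranged from 0.000192 to 0.459 and from 0.000467 to 0.0568. Within the wash batches the change in Pparα hep-/- mice was 0.51 and -4.48, and in Pparα-/- mice -1.93 and -4.70, by plain means without weights. The first batch holds 3 Pparα hep-/- mice on CTRL, among them replicate 1 (6.60, array weight 0.189).

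**Figure D3:**
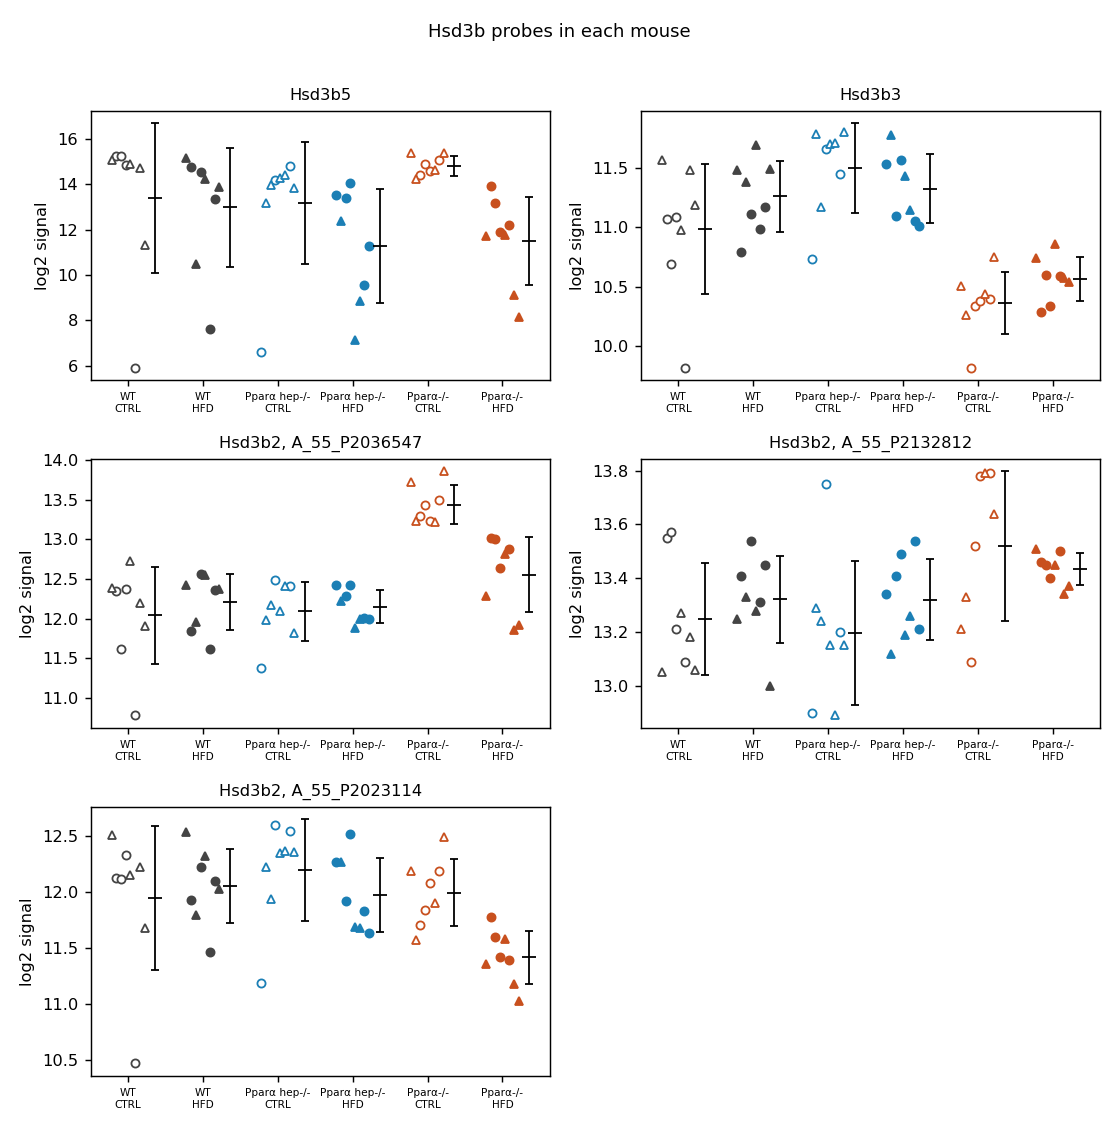
Log2 signal of the 5 Hsd3b probes in each mouse, by genotype and diet (hollow, CTRL; filled, HFD; circles and triangles, the 2 wash batches; bar and whiskers, mean ± SD of 8 mice). Hsd3b5 spans 5.92 to 15.40, with a single mouse apart from its group in WT CTRL and in Pparα hep-/- CTRL, and the mean of Hsd3b3 is lowest in the Pparα-/- mice on both diets.

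In 4 of the 6 groups the mouse lowest in Hsd3b5 also had the highest stellate sum and the lowest hepatocyte sum of its group. In WT CTRL replicate 6, at 5.92, the 5 hepatic stellate cell markers, summed, were at 14.09 against a group median of 11.65, and the 6 macrophage markers at 15.85 against 14.45. In Pparα hep-/- CTRL replicate 1, at 6.60, they were at 14.70 against 12.19 and at 16.70 against 14.91. In WT HFD replicate 6, at 7.60, they were at 14.58 against 11.88 and at 15.98 against 14.65. Pparα-/- CTRL replicate 2, at 14.22, also had the highest stellate and macrophage sums of its group, 13.65 and 16.34. The hepatocyte sums of these 4 mice were 21.12, 21.21, 21.15 and 21.18 in that order. In the lowest mice of the Pparα hep-/- and Pparα-/- groups on HFD, replicates 5 and 8, the stellate sums were 13.48 against a median of 13.44 and 12.62 against 12.95. Replicate 5 of Pparα hep-/- on HFD had a macrophage sum of 15.92 against 15.47 and the highest neutrophil sum of its group, 12.24 against 11.28, and replicate 8 of Pparα-/- on HFD a macrophage sum of 16.13 against 16.08. High stellate sums rest on the collagens Col3a1 (9.15 to 14.04 over the 48 mice) and Col1a1 (6.55 to 12.68). Acta2 reached at most 11.48, Lrat 9.98 and Des 7.20. Of the 6 macrophage markers Lyz2 reached the highest level (11.53 to 16.27). Whether the markers within these sums rose together was not tested.

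**Figure D4:**
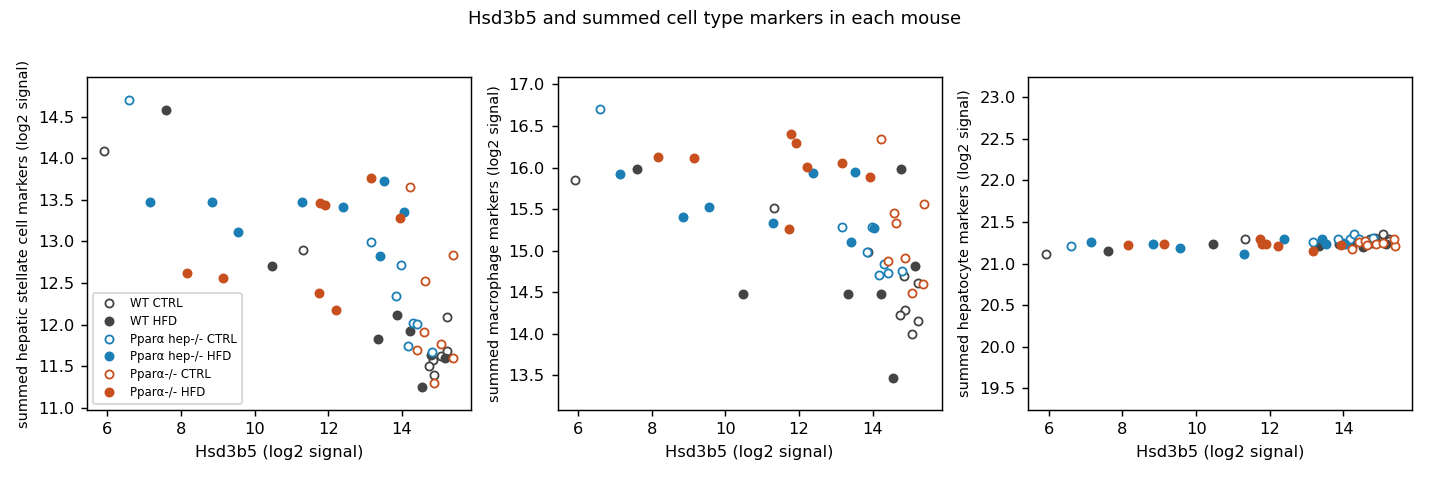
Log2 signal of Hsd3b5 in each of the 48 mice against the summed markers of hepatic stellate cells, macrophages and hepatocytes (log2 of the summed signals), coloured by genotype, hollow for CTRL and filled for HFD. The mice lowest in Hsd3b5 in WT CTRL, Pparα hep-/- CTRL and WT HFD lie at 14.09 to 14.70 on the stellate axis, and the hepatocyte sums span 21.12 to 21.36, with the same 3 mice lowest of their groups.

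Across the groups those sums moved too. Stellate sums had medians of 11.65 to 12.19 in the groups on CTRL, 11.88 in WT on HFD and 13.44 and 12.95 in the mutants on HFD, and macrophage sums had medians of 14.45 to 15.12 on CTRL and 14.65, 15.47 and 16.08 on HFD. Neutrophil sums reached a median of 12.01 in Pparα-/- mice on HFD against 10.79 to 11.28 in the other groups. Their part in the Mup and Hsd3b results was not tested.

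Residual signals of Hsd3b5 were compared with those of the other members. After group and wash batch were removed, Hsd3b5 was correlated over the 48 mice with Mup21 (r = 0.89, rho = 0.75, adjusted p = 0.00018), Mup5 (r = 0.88, rho = 0.75, adjusted p = 6e-05), Mup3 (r = 0.85, rho = 0.73, adjusted p = 6e-05) and Hsd3b3 (r = 0.65, rho = 0.51, adjusted p = 0.00252) by a two-sided permutation test within group and wash batch. The correlation was not called with Hsd3b2 (r = 0.30, rho = 0.15, adjusted p = 0.133) or Mup20 (r = 0.18, rho = 0.23, adjusted p = 0.119). With the processed signal both were called by the same test (r = 0.55, adjusted p = 0.00201, and r = 0.53, adjusted p = 0.000285). After quantile normalisation the Mup20 probe had an SD of only 0.03 to 0.04 within each WT and Pparα hep-/- group. All 6 pairs are of brightest probes, with p adjusted over the 6, and 100000 resamples allow no p under 1e-05. For Spearman's rho the adjusted permutation p was 3e-05 for Mup3 and Mup5, 0.00036 for Mup21, 0.00313 for Hsd3b3, 0.3 for Hsd3b2 and 0.118 for Mup20. In the authors' table it was 0.0293 for Mup20 (rho = 0.33) and 0.292 for Hsd3b2 (rho = 0.14).

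The 2 mice farthest from the median of the Hsd3b5 residual were the 2 with the lowest array weights. Without the wash term Hsd3b3 gave r = 0.52 and rho = 0.26 (adjusted permutation p = 0.00676 and 0.0927), and r = 0.18 without these 2 mice, so there its relation rests on them. With the wash term and without them r was 0.79 for Mup21, 0.80 for Mup5, 0.74 for Mup3, 0.43 for Hsd3b3, 0.09 for Hsd3b2 and 0.23 for Mup20. Within the 2 wash batches of 24 mice, r was 0.97 and 0.50 for Mup21, 0.95 and 0.63 for Mup5, 0.88 and 0.73 for Mup3, 0.72 and 0.45 for Hsd3b3, 0.51 and -0.05 for Hsd3b2, and 0.16 in each for Mup20. Within the 6 groups of 8 mice, r ran from 0.53 to 0.97 for Mup5, from 0.45 to 0.99 for Mup21 and from 0.23 to 0.85 for Hsd3b3. For Mup3 it was -0.18 in Pparα-/- mice on CTRL and 0.77 to 1.00 in the other 5 groups. With the processed signal these values were 0.66 and 0.91 to 1.00. For Mup20 r ran from -0.66 in Pparα hep-/- mice on HFD to 0.85 in Pparα-/- mice on CTRL, which the pooled value does not show, and for Hsd3b2 from -0.11 to 0.63. With the processed signal no group had a negative r for either. There r ran from 0.06 to 0.97 for Mup20, in the same 2 groups, and from 0.30 to 0.87 for Hsd3b2. All points share 1 array between both genes, and Mup probes may read each other's transcripts.

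**Figure D5:**
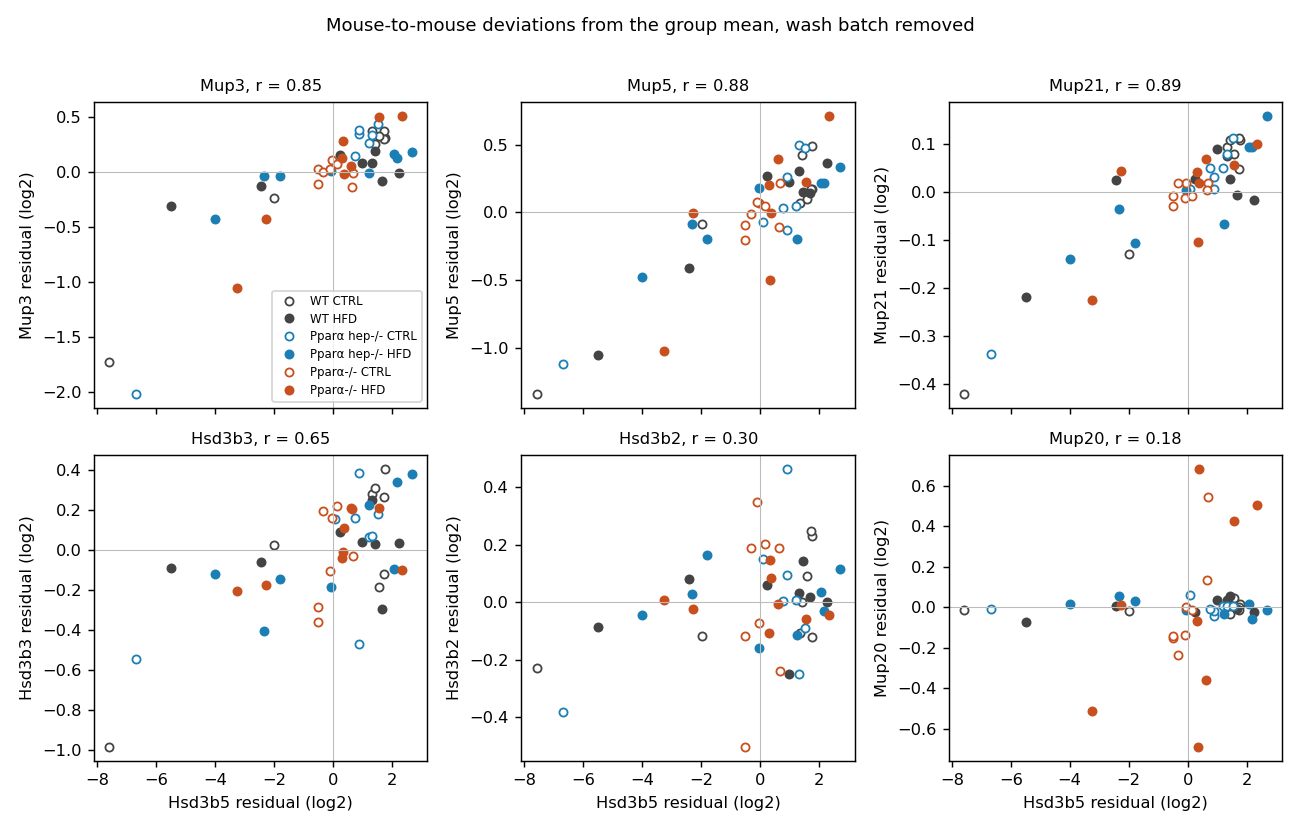
Residual log2 signal of 6 members against that of Hsd3b5 in the 48 mice, after group means and wash batch were removed, with Pearson's r over all mice in each panel. Mup3, Mup5 and Mup21 follow Hsd3b5 (r from 0.85 to 0.89), and Mup20 (r = 0.18) and Hsd3b2 (r = 0.30) do so least with quantile-normalised values.

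Hsd3b3, a family member of liver and kidney, was lower in Pparα-/- than in WT mice on both diets. Its probe was at 10.36 ± 0.26 (SD, n = 8) in Pparα-/- mice on CTRL and 10.57 ± 0.19 on HFD, at 10.99 ± 0.55 and 11.26 ± 0.30 in WT, and at 11.50 ± 0.38 and 11.33 ± 0.29 in Pparα hep-/- mice. On CTRL the Pparα-/- mice lay at 9.82, 10.39 and 10.75, the WT mice at 9.82, 11.08 and 11.57 and the Pparα hep-/- mice at 10.73, 11.68 and 11.80, so that groups touched or overlapped. On HFD all 8 Pparα-/- mice were below all 8 Pparα hep-/- mice.

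The change between Pparα-/- and WT mice was -0.71 on CTRL (SE 0.13, adjusted p = 1.71e-05) and -0.76 on HFD (SE 0.11, adjusted p = 1.54e-07), and against Pparα hep-/- mice it was -1.16 (adjusted p = 2.58e-11) and -0.73 (adjusted p = 1.56e-07). Hepatocyte deletion went the other way on CTRL, with 0.46 above WT (SE 0.12, adjusted p = 0.00428), and on HFD the difference was -0.03 (95% interval -0.25 to 0.19). Diet itself was not called in WT or Pparα-/- mice for Hsd3b3. In Pparα hep-/- mice it missed the threshold (-0.27, adjusted p = 0.0645) and passed it in 4 alternatives, such as median scaling (-0.34, adjusted p = 0.0188), and without any of 6 single arrays (WT CTRL replicate 6, Pparα hep-/- CTRL replicates 1 and 3 and HFD replicates 1, 2 and 4). The response of WT minus that of Pparα hep-/- mice was 0.49 (adjusted p = 0.0481), the only call among the members in that contrast, and it was lost when any of 31 of the 48 arrays was left out and in 7 alternatives (adjusted p up to 0.444). The response of Pparα hep-/- minus that of Pparα-/- mice, -0.43 and not called (adjusted p = 0.117), was called with median scaling (-0.54, 0.0366).

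Hsd3b6, which is no member, followed Hsd3b3. Its change between Pparα-/- and WT mice was -0.80 on CTRL and -0.94 on HFD, and Pparα hep-/- mice were 0.40 above WT on CTRL. By the rule of the smallest root mean square difference over the 48 centred arrays, Hsd3b6 was also the gene with the pattern most like Hsd3b3 (0.202), followed by Abcc6 (0.262) and Daglb (0.268).

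The 3 Hsd3b2 probes disagreed. In A_55_P2036547 the Pparα-/- mice on CTRL were at 13.22, 13.37 and 13.86, above all WT mice (10.78, 12.27 and 12.73) and all Pparα hep-/- mice (11.38, 12.14 and 12.49) on that diet, with changes of 1.23 and 1.22. HFD changed it by -0.96 in Pparα-/- mice (adjusted p = 3.76e-05), to 11.86, 12.73 and 13.02. The response of WT minus that of Pparα-/- mice was 1.08 and that of Pparα hep-/- minus Pparα-/- mice 0.85, both called, the latter not without Pparα hep-/- CTRL replicate 8, Pparα-/- CTRL replicate 1 or HFD replicate 7 or 8 (adjusted p up to 0.0728), nor without weights (0.95, adjusted p = 0.136), without the filter (0.0613) or without the 2 arrays of lowest weight and weights (0.12).

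The brightest Hsd3b2 probe, A_55_P2132812, stood 0.32 above WT and 0.32 above Pparα hep-/- mice in the Pparα-/- mice on CTRL, the former not called without Pparα-/- CTRL replicate 6 (adjusted p = 0.0531) and the latter not with median scaling (0.22, adjusted p = 0.0667) or without the 2 arrays of lowest weight and weights (0.24, adjusted p = 0.0564). HFD changed it by -0.15 in Pparα-/- mice, not called, against -0.26 with the processed signal (adjusted p = 0.0208). The other, A_55_P2023114, was not called on CTRL, but Pparα-/- against Pparα hep-/- mice, at -0.33 (adjusted p = 0.0848), was called with median scaling (-0.40, 0.0389) and without the 2 arrays of lowest weight (-0.36, 0.0271). It changed with HFD by -0.45 in Pparα hep-/- (adjusted p = 0.0114, lost without CTRL replicate 4 or HFD replicate 6, up to 0.0791, and without weights, at -0.20 with adjusted p = 0.694) and by -0.63 in Pparα-/- mice (adjusted p = 0.000734), and was lower on HFD in Pparα-/- mice than in WT by -0.70 and than in Pparα hep-/- mice by -0.51. The call in Pparα hep-/- mice was also lost without the filter (0.081), without the wash term (0.0716), in the authors' table (0.0522) and without the 2 arrays and weights (0.092). The files place the 3 probes at separate sites of the gene on chromosome 3, and the brightest carries another transcript's accession than the others. No direction is therefore given for Hsd3b2 as a gene.

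Between genotypes, the counts of called probes were as follows. On CTRL, 5 of 13 were called between Pparα-/- and WT mice, 2 higher and 3 lower (34.2% of all probes, 15.6% as higher and 18.7% as lower), and 2 had groups that did not overlap (6.15% of all probes). Between the 2 mutants on CTRL 6 of 13 were called, 3 in each direction (25.2% of all probes, 12.2% and 13%), and 2 did not overlap (4.43%). On HFD, 4 of 13 were called between Pparα hep-/- and WT mice, all lower (26.7% of all probes, 13.4% as lower). Without array weights 0 of 13 were called there, where 9.74% of all probes were. Between Pparα-/- and WT mice 10 of 13 were called, all lower (45.7%, 24% as lower), and 3 did not overlap (6.93%). Between the 2 mutants on HFD 6 of 13 were called, all lower in Pparα-/- (30.6%, 15.4% as lower), and 2 did not overlap (6.55%). Hsd3b2 A_55_P2036547 lay the other way in this contrast, 0.37 higher in Pparα-/- mice and not called (adjusted p = 0.0527), and it was called in 4 alternatives (0.38 to 0.40, adjusted p from 0.0371 to 0.0413) and without any of 12 single arrays. The counts for Pparα hep-/- against WT on both diets and for Pparα-/- against WT on CTRL were thus close to the share of all probes. The median over the 13 probes between Pparα-/- and WT mice on HFD was -0.72, beside -0.03 over all probes.

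Leaving out WT HFD replicates 1 and 2, the mice low in the adipocyte sum, changed 2 of these calls. The difference of Hsd3b5 between Pparα-/- and WT mice on HFD became -1.88 (adjusted p = 0.0683), and for Hsd3b2 A_55_P2023114 the response of WT minus that of Pparα-/- mice went from 0.58 (adjusted p = 0.0493) to 0.55 (adjusted p = 0.064). The latter call was also lost without any of 29 of the 48 arrays and in 8 further alternatives (adjusted p up to 0.159). In WT mice 0 of 13 probes were called between diets without them as well.

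Other probes of both families were counted in the same way, beside shares over all probes of 18.7%, 20.2% and 24.8% called between diets in WT, Pparα hep-/- and Pparα-/- mice. Of 9 other Mup probes, 0 were called between diets in WT, 6 were lower on HFD in Pparα hep-/- and 5 lower in Pparα-/- mice, with medians of 0.09, -0.42 and -0.48. The response of WT minus that of Pparα hep-/- mice was called for 5 of these 9, all positive, where 10.4% of all probes were called and 5.79% as positive. It was called for 0 of the 8 probes of the Mup members, and the difference between these 2 counts was not tested. Of 5 other Hsd3b probes that were tested, 1 was higher on HFD in WT, 0 changed in Pparα hep-/- and 2 were lower in Pparα-/- mice. The 1 that rose in WT was Hsd3b7 (0.68, adjusted p = 3.04e-05), which acts in bile acid rather than hormone synthesis. 2 of the 3 Hsd3b4 probes were too dim to be tested, and the third was well above background on 0 of 8 arrays of Pparα-/- mice on HFD. The 2 Hsd3b1 probes were so on 3 of those 8 each.

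Upstream sequence was at hand from RefSeq for 5 of the 7 genes, in 6 promoters of 250 bases before to 50 after the start, and Mup5 and Mup20 had no entry. The motif TTCNNNGAA, of the kind bound by the growth hormone mediator STAT5, was found on either strand in 0 of the 6, where 8.3% of 32851 promoters hold it, and AGGTCA, a nuclear receptor half-site, in 0 of the 6, where 16.3% hold it. Mup3 and Mup21 were alike at 205 of 244 aligned bases before the start (84%), against 31.2% and 31.3% of each with Hsd3b5. The last 100 bases before the start are shown for these 2 genes because their signals fell together in Pparα-/- mice on HFD, and capitals mark TATATAA, a motif looked for after the sequences were seen and held by 3.24% of all promoters. The 6 other Mup promoters at hand (Mup2, Mup4, Mup6, Mup11, Mup17 and Mup19) hold it as well, so it does not set these 2 genes apart within the family.
Mup3 promoter: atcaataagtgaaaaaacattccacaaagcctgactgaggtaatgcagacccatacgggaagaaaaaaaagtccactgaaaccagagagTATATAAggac
Mup21 promoter: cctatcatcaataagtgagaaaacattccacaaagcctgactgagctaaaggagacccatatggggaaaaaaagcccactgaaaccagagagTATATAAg
They lie on the minus strand of GRCm38.p6 at chr4:62087318-62087417 and chr4:62150842-62150941. A motif found or missing in these windows says nothing of the binding of any factor.

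Other genes with higher levels in male liver were counted beside the members, by the brightest probe of each gene. Of 19 male-biased genes, 5 were called between diets in WT (2 higher, 3 lower), 9 after hepatocyte deletion (all lower on HFD) and 14 in Pparα-/- mice (all lower), and the medians were -0.18, -0.38 and -0.67. Over all probes the shares called were 18.7%, 20.2% and 24.8% in that order, and the count in WT is near its share. The changes farthest from 0 were those of Moxd1, with -4.93 in Pparα hep-/- and -7.02 in Pparα-/- mice (adjusted p = 0.000324 and 3.87e-06), of Cyp4a12a, a fatty acid hydroxylase, with -2.87 in Pparα hep-/- mice, and of Elovl3, a fatty acid elongase, with -1.90 in Pparα-/- and 1.32 in WT mice. On CTRL, 7 of the 19 differed between Pparα-/- and WT mice, 5 of them higher in Pparα-/- mice (34.2% of all probes, 15.6% as higher). Of 20 female-biased genes, 9, 7 and 7 were called between diets in the 3 genotypes, mostly higher on HFD (7, 6 and 6), led by Cyp2b9 with 4.77 in WT and 5.43 in Pparα hep-/- mice and by Slc22a27 with 1.97 in Pparα-/- mice.

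The signalling and hormone genes around these families were counted as well. Of 19 genes of growth hormone signalling, 5, 0 and 5 were called between diets in WT, Pparα hep-/- and Pparα-/- mice, near or below the shares of all probes. Socs2, a feedback inhibitor of growth hormone signalling, changed by -1.76 with HFD in WT mice, and Igfbp3, a binding protein of the growth factor Igf1, stood 1.64 above WT in Pparα-/- mice on CTRL and 1.92 above on HFD. Among steroid receptors, the estrogen receptor Esr1 changed by -0.61 with HFD in Pparα hep-/- mice (adjusted p = 0.0302). Of 11 other lipocalins and pheromone carriers, 2, 4 and 2 were called between diets, read beside the same shares, and Lcn2, which rises in inflammation, was higher on HFD by 3.19 in Pparα hep-/- and by 1.83 in Pparα-/- mice.

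Steroid metabolism showed calls in both directions. Of 24 genes, 9 (8 higher, 1 lower), 11 (5 and 6) and 8 (5 and 3) were called between diets in WT, Pparα hep-/- and Pparα-/- mice, where 18.7%, 20.2% and 24.8% of all probes were. Srd5a1, a steroid 5α-reductase, was lower on HFD in all 3, by -0.73, -1.04 and -1.60. Between Pparα-/- and WT mice on HFD 17 of 24 were called, 6 higher and 11 lower (45.7% of all probes, 24% as lower), with the estrogen sulfotransferase Sult1e1 at 6.03 and Srd5a2, another 5α-reductase, at -1.64. Cyp7b1 stands in this list and in the male-biased one, and Sult2a1 and Cyp17a1 in this one and in the female-biased one.

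By the same rule of likeness, the genes nearest in pattern to Hsd3b5 were Pax2 (1.40), the male-biased transporter Slco1a1 (1.49) and Mup11 (1.55), which are wide differences on the log2 scale. Those nearest to Mup20 were Zfp672 (0.325), Prkd2 (0.336) and Srrm1 (0.344). Those nearest to Mup3 were 1700001C19Rik (0.317), Olfr125 (0.329) and Hsd3b2 (0.329), those to Mup21 were Pskh1 (0.0893) and Gle1 (0.103), and those to Hsd3b2 were H2-Q4 (0.152), Mcmdc2 (0.153) and Ncor1 (0.160). The Mup21 and Hsd3b2 probes used here vary little over the arrays, so that small differences from other steady probes follow from that.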

How the data were processed

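Liver RNA was hybridised to 1-colour Agilent arrays, and the authors deposited the Feature Extraction 10.10.1.1 files, whose median spot intensity per the file headers is linear and not background-subtracted, with a log2 table the authors had quantile-normalised and corrected for the washing bath. The intensity was used and the log2 table served as an alternative. Control and outlier spots were left out, spots averaged per probe, and log2 values quantile-normalised over the probes that stood well above background on 4 or more of the 8 arrays of a group. limma 3.58.1 in R 4.3.3 was fitted to all 48 arrays with 1 mean per group, the wash batch and array weights (0.189 to 2.53), and p-values were adjusted over 33323 probes within each of 12 contrasts by the Benjamini-Hochberg method. 195 missing values among the tested probes stayed missing. The number of arrays limits the precision. No pair of arrays agreed as a repeat would (highest correlation 0.84 after centring), and the labels do not say whether mice shared a cage or litter.

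Every probe of the 7 genes is described, a gene's main value being its brightest tested probe. The members and gene lists were chosen with earlier results of these data known. Of 29 family probes 24 matched a RefSeq accession, each with the same symbol. Alternatives covered background correction, scaling, the filter, weights, batch terms, a block for the replicate number and each array left out. 4 were chosen after seeing the data: median scaling, leaving out the 2 arrays of weight under 0.25 with or without weights, and leaving out WT HFD replicates 1 and 2. 1 gene of the lists and 1 probe sequence are not reported here. The code was tested on simulated data.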

Additional observations from a re-analysis of the deposited data

Results flagged for a closer look

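In 15 of 78 sets of 8 mice, 1 per probe and group, the lowest or highest mouse stood apart from the other 7 by Dixon's criterion (19.2%, where chance gives about 1 in 20). 6 of the 15 came from Pparα hep-/- CTRL replicate 1 and 4 from WT CTRL replicate 6, the 2 arrays of lowest weight. Replicate 6 of WT CTRL was low for Hsd3b5 (5.92), Hsd3b2 A_55_P2023114 (10.47), Mup3 A_52_P232508 (16.07) and Mup5 (16.42). Replicate 1 of Pparα hep-/- CTRL was low for Hsd3b5 (6.60), Hsd3b2 A_55_P2023114 (11.19), Mup21 A_55_P2025343 (13.48), Mup3 A_52_P232508 (15.80), Mup3 A_66_P133052 (7.86) and Mup5 (16.59). Pparα-/- CTRL replicate 2 was low for Mup21 A_55_P2025343 (16.99) and Mup3 A_55_P1971237 (17.56). Pparα hep-/- HFD replicate 5 was low for Mup3 A_52_P232508 (17.44). The others were high, Pparα-/- CTRL replicate 1 for Mup20 A_55_P2063654 (18.23) and Pparα hep-/- CTRL replicate 4 for Hsd3b2 A_55_P2132812 (13.75).

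The response to HFD differed between genotypes by limma's test of the difference for 11 pairs of probe and contrast. WT minus Pparα-/- was 2.00 for Mup21 A_55_P2025343, 1.08 for Hsd3b2 A_55_P2036547, 1.07 for Mup5, 1.03 for Mup3 A_52_P232508, 0.94 for Mup20 A_55_P2063654, 0.92 for Mup3 A_55_P1971237 and 0.58 for Hsd3b2 A_55_P2023114. Pparα hep-/- minus Pparα-/- was 0.98 for Mup20 A_55_P2063654, 0.85 for Hsd3b2 A_55_P2036547 and 0.71 for Mup3 A_55_P1971237, and WT minus Pparα hep-/- was 0.49 for Hsd3b3.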

How the results depend on the processing

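Counts of the 13 probes called moved by no more than 1.5 times in all 12 contrasts with the processed signal, a stricter filter, outlier spots kept, without the 2 arrays of lowest weight (chosen after seeing the data) and without WT HFD replicates 1 and 2 (likewise). No called change reversed its direction in any alternative. HFD against CTRL in Pparα hep-/- mice (5 calls) gave 1 without the filter, 0 without weights, 1 without the wash term, 3 with the replicate block, 2 in the authors' table, and 1 without the 2 arrays and without weights. Pparα hep-/- against WT on CTRL (2) gave 1 without the filter, without weights, without the wash term and without the 2 arrays and weights. The same pair on HFD (4) gave 1, 0, 2 and 1 in that order. WT minus Pparα hep-/- in response (1) gave 2 with normexp, and 0 without the filter, without weights, without the wash term, with slides, with the replicate block, in the authors' table and without the 2 arrays and weights. Pparα hep-/- minus Pparα-/- (3) gave 1 without weights and 5 with median scaling. The correlation of Hsd3b5 with Hsd3b2 was called in the processed signal (r = 0.55, adjusted permutation p = 0.00201) and in the authors' table (r = 0.29, p = 0.0438), and with Mup20 in the processed signal (r = 0.53, p = 0.000285). Over all probes, calls fell without weights from 6735 to 1270 for HFD in Pparα hep-/- and from 8273 to 4034 for HFD in Pparα-/- mice, and without the filter from 6735 to 3578 for the former. The cause was not tested.

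With each array left out in turn, counts ranged from 0 to 0 (HFD in WT), 1 to 7 (in Pparα hep-/-), 9 to 10 (in Pparα-/-), 1 to 2, 5 to 5 and 5 to 7 (Pparα hep-/- against WT, Pparα-/- against WT and the 2 mutants on CTRL), 3 to 4, 8 to 10 and 6 to 7 (the same on HFD), and 0 to 3, 6 to 8 and 2 to 5 (response of WT minus Pparα hep-/-, WT minus Pparα-/- and Pparα hep-/- minus Pparα-/-). The count in Pparα hep-/- mice moved by over 1.5 times without CTRL replicate 4, 6 or 7 or HFD replicate 5, 6 or 7, that for Pparα hep-/- against WT on CTRL without WT CTRL replicate 2 or 5 or Pparα hep-/- CTRL replicate 6, and that for Pparα hep-/- minus Pparα-/- without Pparα-/- HFD replicate 2 or 3, and that for WT minus Pparα hep-/- without any of 34 arrays. The labels number the mice 1 to 8 in each group and do not say what the number stands for. Of 120 pairs of arrays with the same number 35 correlated over 0.1 (from -0.449 to 0.694). The median was 0.0223, against -0.0023 for different numbers. No such share was taken for different numbers, so these values cannot settle whether the number pairs mice. With the replicate block 2 of the 12 counts moved by over 1.5 times, both given above.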
